A study of Trichoderma reesei QM6a with 24 samples.

Results

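TrE0303W is the gene model of the G-protein coupled receptor gene, locus tag TRIREDRAFT_72004, that was deleted in the mutant QM6aΔ72004 of the filamentous fungus *Trichoderma reesei*. It is described here with its neighbours TrE0300C, TrE0301C, TrE0302W and TrE0306C, which makes 5 of 10879 gene models. These neighbours lie on the same contig and passed the filter on low counts. The rule lists the models by name as the deleted gene and its neighbours, and they were chosen with earlier results of these data known. The series holds 24 RNA-seq libraries from mycelium, with 8 groups of 3. The groups were wild type QM6a and the deletion mutant, each grown on cellulose in minimal medium at 28 °C in constant darkness or constant light, with no addition or with 5 mM L-methionine. All groups share the strain background QM6a, the cellulose and the medium. The sample labels give 72 h of growth and the growth protocol 96 h, and which of them holds could not be settled. How many mutant strains were used is not in the labels, nor is whether replicate libraries derive from independent cultures. The p-values therefore describe only the spread between these libraries, which may be technical.

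G-protein coupled receptors lie in the cell membrane, bind a signal outside the cell and pass it to a G protein of alpha, beta and gamma subunits inside. The released subunits act on enzymes such as adenylate cyclase, whose product cyclic AMP frees the catalytic subunits of protein kinase A. In filamentous fungi such receptors sense nutrients and mating pheromones, and in *T. reesei* both G-protein signalling and light are known to enter the control of cellulase genes. The title of the series places this receptor in the response to methionine, so its own level with and without methionine, in both lightings, is a basic property of the system under study.

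Library totals ran from 13210988 to 21224989 counts, and 9308 models were tested. Levels are in CPM, a library's counts scaled to a fixed total with edgeR's TMM factors, so that a model's level can be compared between libraries but not between models of different length. A floor of 3 counts in 1 library corresponds to 0.132 to 0.218 CPM. The library numbers of the light samples and of the dark samples form 2 runs, so lighting and library series cannot be told apart where light is compared with darkness. Replicate 3 of the wild type in light stood apart from its group. The chi-square per model between its counts and those of replicates 1 and 2 was 156 and 158, against 4.07 between replicates 1 and 2, and values without this library are given where they bear on a result. Replicate 3 of the mutant in light with methionine also stood off from its group (131 and 103, against 57.4 between the other libraries), and its effect on the members is covered by the runs without each library.

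The models stand in the order TrE0300C, TrE0301C, TrE0302W, TrE0303W, TrE0304C, TrE0305W and TrE0306C on contig unitig_4_consensus, in the coordinates of the count table, whose genome build is not named there. TrE0303W lies on the plus strand from 935227 to 936691, with 4 exons and a coding length of 1215 bases. Its span of 1465 bases is identical to that of TRIREDRAFT_72004 in the RefSeq table of QM6a (assembly v2.0), and 7 of its neighbours also have spans identical to those of the neighbours of that tag. TrE0302W (TRIREDRAFT_110032, 923297 to 925879, 1 exon, coding length 2583) lies upstream on the same strand, with 9347 bases between it and TrE0303W. TrE0301C (919097 to 921067, 10 exons, coding length 1302) and TrE0300C (TRIREDRAFT_66175, 916253 to 917202, 2 exons, coding length 873) lie further upstream on the minus strand. On the other side 4110 bases separate TrE0303W from TrE0304C (TRIREDRAFT_110035, 940802 to 942960, minus strand), which is followed by TrE0305W (945883 to 947882, plus strand) and then by TrE0306C (948531 to 949466, minus strand, 1 exon, coding length 936). TrE0301C, TrE0305W and TrE0306C were not linked to a locus tag, and the sources used here give no function for any of the neighbours.

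**Figure D1:**
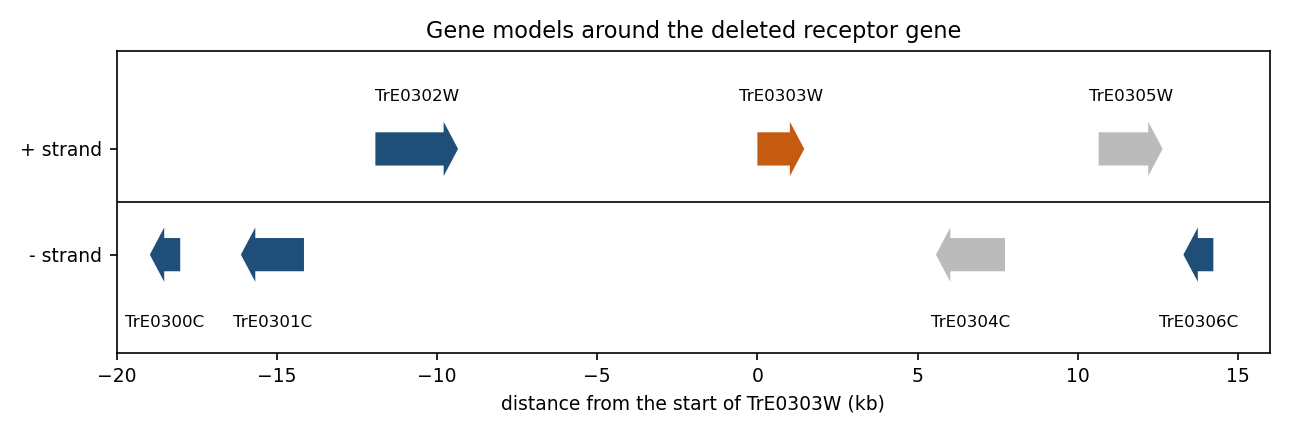
Gene models around TrE0303W, drawn as arrows in the direction of transcription along the distance from the start of TrE0303W in kb, with the deleted gene in orange, tested neighbours in blue and models that were not tested in grey. The deleted gene stands alone, with 9347 bases to its left and 4110 bases to its right before the next model.

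The deletion removed every count of the receptor gene. In wild type darkness TrE0303W had 433, 364 and 390 counts without methionine and 466, 579 and 529 with it. In wild type light it had 102, 118 and 86 counts without methionine and 371, 259 and 358 with it. It had 0 counts in each of the 12 mutant libraries. Against a floor of 3 counts over the 12 mutant libraries together it was at least 1519-fold lower in the mutant. Within a condition, with 3 counts over the 3 mutant libraries, the bound was at least 414-fold in darkness and 583-fold there with methionine, and 106-fold in light and 425-fold there with methionine. These bounds cover counting error only, and they differ with the wild type level. This is a check of the genotype labels and not a finding. TrC0447C was the only other model whose wild type libraries all had over 20 counts (211 to 797) and whose mutant libraries had none.

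The receptor gene was low in light without methionine and higher in the other wild type conditions. In darkness its level was 29.4, 26.4 and 23.9 CPM without methionine and 28.2, 30.6 and 28.9 CPM with it. In light it was 5.81, 6.35 and 6.08 CPM without methionine and 24.3, 18.2 and 20.4 CPM with it. All 3 libraries from light without methionine lay below all 9 others, with no overlap. For this and the other separation of groups named here, the share of all models was not counted, so they are a description only. The order of the means from low to high was light (6.08 ± 0.272 CPM, SD, n = 3), light with methionine (21.0 ± 3.09), darkness (26.6 ± 2.73) and darkness with methionine (29.2 ± 1.27). Light with methionine and darkness overlapped in range, as did darkness and darkness with methionine, while light with methionine and darkness with methionine did not overlap. In a whole mycelium, fewer cells that express a gene and less RNA of it per cell cannot be told apart.

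**Figure D2:**
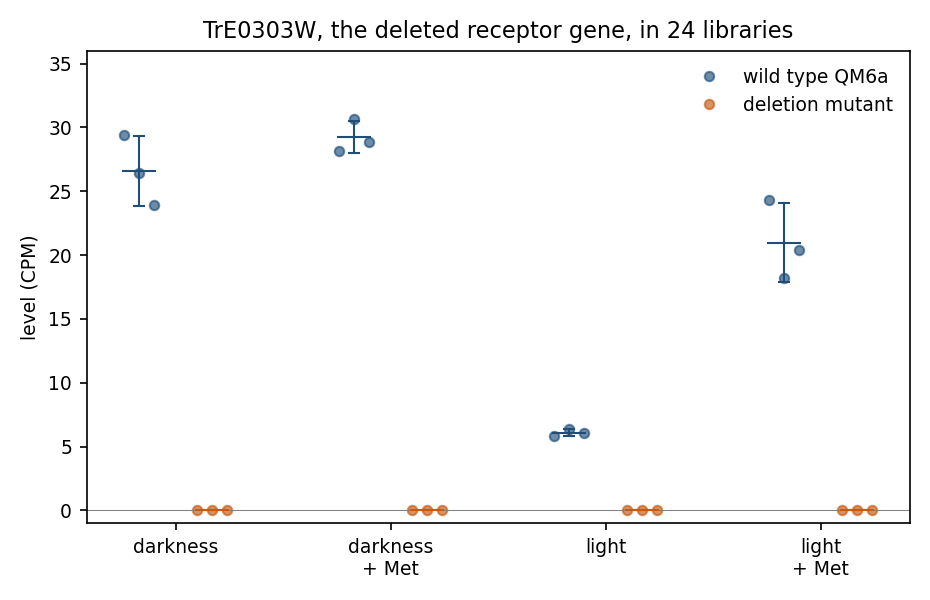
Level of TrE0303W in CPM in all 24 libraries by condition, with points for libraries, horizontal marks for group means and bars for SD (n = 3). The wild type libraries from light lie at 5.81 to 6.35 CPM, all other wild type libraries at 18.2 to 30.6, and the mutant libraries at 0.

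Light lowered the receptor gene 4.36-fold in the wild type without methionine (log2 fold change −2.13, SE 0.13, edgeR adjusted p = 1.85e-08; 95% interval of the fold 3.58 to 5.33). With methionine the fall in light was 1.39-fold (−0.48, SE 0.12, edgeR adjusted p = 0.00704; interval 1.16 to 1.67). Of all tested models 64.8% passed the threshold for light without methionine, 32.2% as lower, and 689 models were called lower with a fall at least as large as that of TrE0303W. With methionine 39.1% passed. Leaving out the wild type's replicate 3 in light gave −2.12 for the fall without methionine.

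Methionine raised the receptor gene in light 3.44-fold (log2 fold change 1.78, SE 0.13, edgeR adjusted p = 8.67e-08; interval 2.82 to 4.20). In darkness the log2 fold change was 0.14 (SE 0.12, edgeR adjusted p = 0.311), which did not pass the threshold, and the interval of the log2 fold change (−0.12 to 0.40) leaves out any rise of the size seen in light. The responses in the 2 lightings differed when tested directly: the methionine effect in light minus that in darkness was 1.65 (SE 0.18, edgeR adjusted p = 8.25e-06; interval 1.26 to 2.03). Methionine effects were common among all models, 67.4% being called in light (35.2% as higher) and 75.6% in darkness, and 49.6% differed between lightings. In light 971 models were called higher with a rise at least as large as that of TrE0303W, and 610 had a positive difference between lightings at least as large. With the wild type's replicate 3 in light left out, the rise was 1.78 and the difference 1.65 on the log2 scale.

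Per kb of coding length the receptor gene stood below the middle of the tested models in every wild type group. Its level was 21.9 CPM per kb in darkness, above 45.5% of the tested models, 24.1 in darkness with methionine (46.1%), 17.2 in light with methionine (38.6%) and 5.00 in light (23.3%).

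Over the 12 wild type libraries the Pearson r of their log2 CPM with that of TrE0303W was −0.10 for TrE0300C, −0.57 for TrE0301C, −0.11 for TrE0302W and 0.53 for TrE0306C. These values are a description over libraries that share conditions and scaling.

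TrE0300C was the neighbour with the widest range, 7.68-fold between its lowest and highest group means. In wild type darkness it had 10.1, 10.4 and 8.10 CPM without methionine and 37.3, 41.6 and 37.7 CPM with it. In wild type light it had 32.04, 34.9 and 23.97 CPM without methionine and 69.7, 67.8 and 65.4 CPM with it. Light and methionine each raised it, and it was highest where both were present. Methionine raised it by 2.03 on the log2 scale in darkness (SE 0.13, edgeR adjusted p = 2.09e-11) and by 1.15 in light (SE 0.12, edgeR adjusted p = 5.41e-08), and light raised it by 1.68 without methionine and 0.80 with it. The methionine effect was smaller in light than in darkness (difference −0.88, SE 0.18, edgeR adjusted p = 0.00039), so the sign of this difference is opposite to that of TrE0303W. With the wild type's replicate 3 in light left out, its lowest library there, the difference was −1.02.

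In the mutant TrE0300C gave nearly the same levels. In darkness it had 10.8, 8.48 and 8.97 CPM without methionine and 41.1, 38.2 and 42.0 CPM with it. In light it had 34.8, 27.2 and 32.7 CPM without methionine and 75.2, 76.1 and 66.2 CPM with it, so that wild type and mutant overlapped in all 4 conditions. The methionine effect in the mutant was 2.10 in darkness and 1.20 in light, the light effect 1.74 without methionine and 0.84 with it, and the difference between lightings −0.90 (edgeR adjusted p = 0.000336). The difference between the genotypes in the methionine effect was 0.07 in darkness and 0.04 in light, with intervals from −0.32 to 0.45 and from −0.31 to 0.40 on the log2 scale.

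TrE0301C was lowest in darkness with methionine in both genotypes. Dark wild type libraries had 37.2, 34.4 and 39.6 CPM without methionine and 23.1, 21.8 and 22.04 CPM with it, and dark mutant libraries 31.0, 33.1 and 31.4 CPM without it and 21.7, 21.2 and 20.01 CPM with it. Wild type libraries from light had 37.0, 41.3 and 40.9 CPM without methionine and 36.5, 34.2 and 36.6 CPM with it, and mutant libraries from light 47.5, 43.3 and 42.1 CPM without it and 33.9, 32.4 and 29.1 CPM with it. Within each genotype and lighting, the libraries with and without methionine did not overlap, though in wild type light they came as close as 36.58 and 36.99 CPM. The share of all models without such overlap was not counted. Methionine lowered it in darkness in the wild type (log2 fold change −0.73, SE 0.07, edgeR adjusted p = 1.97e-08) and in the mutant (−0.60, edgeR adjusted p = 3.25e-07). In light it was lowered in the mutant (−0.48, edgeR adjusted p = 6.72e-06), and the wild type value of −0.15 did not pass (edgeR adjusted p = 0.0746).

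TrE0301C was also the neighbour whose genotypes overlapped in no condition. Mutant libraries lay below all wild type libraries in darkness, in darkness with methionine and in light with methionine, and above them in light. The share of all models that separate in this way was not counted, so the separation is a description only. The deletion effect was −0.22 in darkness (interval −0.37 to −0.06), −0.09 in darkness with methionine (−0.25 to 0.07), 0.16 in light (0.01 to 0.31) and −0.17 in light with methionine (−0.32 to −0.01), on the log2 scale. None passed after adjustment over all models (edgeR adjusted p = 0.169, 0.89, 0.321 and 0.464). Direct tests of a difference between the genotypes did not pass either. For the methionine effect in light the difference was −0.33 (edgeR adjusted p = 0.213), and for the light effect without methionine it was 0.38 (edgeR adjusted p = 0.145). The difference between the genotypes in the methionine by light interaction was −0.46 (edgeR adjusted p = 0.55; unadjusted p = 0.00582 by edgeR). The latter contrasts, between light effects and between interactions, were added after the values were seen.

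TrE0302W, the nearest tested model, varied little, with a range of 1.26-fold between its lowest and highest group means. Dark wild type libraries had 53.5, 46.1 and 55.7 CPM without methionine and 42.6, 41.0 and 46.0 CPM with it. Wild type libraries from light had 50.1, 48.6 and 47.9 CPM without methionine and 53.1, 57.6 and 53.1 CPM with it. In darkness the group with methionine lay below the group without it, and the share of all models that separate so was not counted. The fall was −0.26 on the log2 scale (SE 0.09, edgeR adjusted p = 0.0118), and it no longer passed when replicate 3 of the wild type in darkness (−0.21) or replicate 2 of the wild type in darkness with methionine (−0.22) was left out. In light the methionine value was 0.16 (edgeR adjusted p = 0.115), and the difference between lightings passed (0.42, SE 0.13, edgeR adjusted p = 0.00854). With methionine it was higher in light than in darkness (0.34, edgeR adjusted p = 0.0044). No methionine or light effect on it passed in the mutant in the fit of all libraries, with log2 fold changes from −0.12 to 0.10 and edgeR adjusted p from 0.202 to 0.718. Without replicate 1 of the mutant in light with methionine its methionine effect in light passed (−0.19, edgeR adjusted p = 0.0378). No direct test of a difference between the genotypes passed for TrE0302W. The difference was 0.14 for the methionine effect in darkness (edgeR adjusted p = 0.937) and −0.24 for the light effect with methionine (edgeR adjusted p = 0.792). For the methionine by light interaction it was −0.36 (edgeR adjusted p = 0.666).

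TrE0306C, on the far side of the deleted gene, had group means between 15.2 and 19.6 CPM, with neighbouring groups overlapping throughout. Without methionine, wild type libraries had 20.6, 17.7 and 20.5 CPM in darkness and 15.3, 14.5 and 15.98 in light, with no overlap. How many of all models separate between these groups was not counted. Light lowered it there by a log2 fold change of −0.37 (SE 0.11, edgeR adjusted p = 0.00745). Mutant libraries from darkness (15.5, 18.8 and 15.7 CPM) overlapped those from light (15.8, 17.1 and 14.1), with a log2 fold change of −0.09 that did not pass (edgeR adjusted p = 0.504). The difference between the genotypes in the light effect did not pass either (0.28, edgeR adjusted p = 0.464), and no methionine effect on TrE0306C passed in either genotype.

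**Figure D3:**
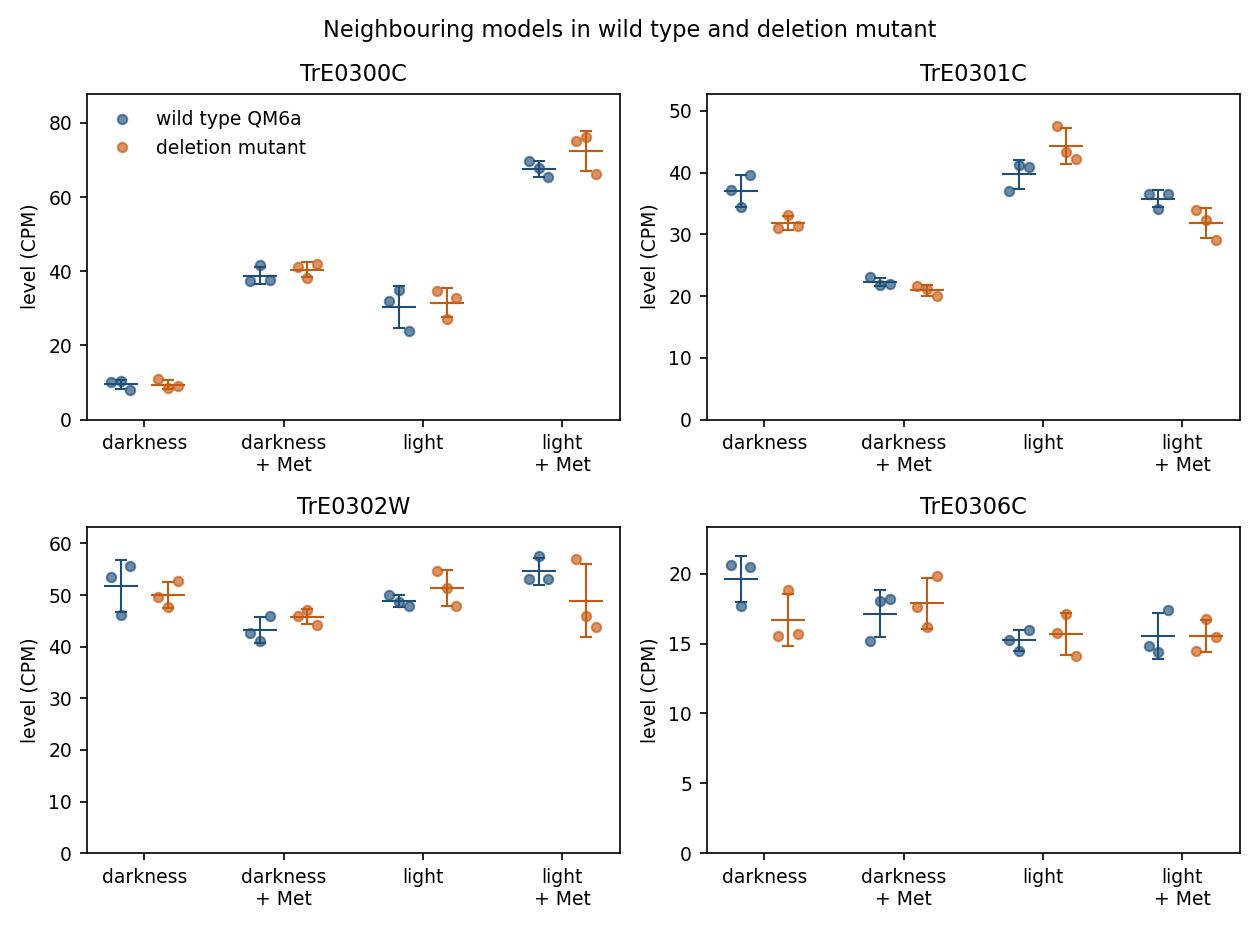
Levels of the 4 neighbours in CPM by condition in the wild type and the mutant, with points for libraries, horizontal marks for group means and bars for SD (n = 3). TrE0300C rises with methionine and with light in both genotypes, TrE0301C is lowest in darkness with methionine, and TrE0302W and TrE0306C stay within 41.0 to 57.6 CPM and 14.1 to 20.6 CPM.

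Deletion of the receptor gene gave no called change of a neighbour. By edgeR 0 of 4 were called in each of the 4 conditions, against 0.204% of all models in darkness and 0.537% there with methionine, and 0.15% in light and 0.344% there with methionine, so that 0 of 4 is also what the background gives. DESeq2 called 0 of 4 at an adjusted p under 0.05 in each condition, where it called 157, 109, 247 and 89 of all models in the same order. At an unadjusted p under 0.05 edgeR gave 2 neighbours in darkness (TrE0301C and TrE0306C) and 0 there with methionine. In light it gave 1, and 1 there with methionine (TrE0301C in both). The percentages above are for adjusted p. For this and the later counts at an unadjusted p, the share of all models was not counted, so they have no background. The log2 fold changes ran from −0.23 to −0.01 in darkness and −0.09 to 0.08 there with methionine, and from 0.04 to 0.16 in light and −0.17 to 0.10 there with methionine. Over all 16 values the 95% intervals reached no lower than −0.47 and no higher than 0.35 on the log2 scale, which bounds the size of an effect without showing that there was none. With the wild type's replicate 3 in light left out, TrE0300C had −0.08 in light in place of 0.06, which did not pass either way. The medians of the 4 neighbours were −0.14, 0.06, 0.06 and −0.08 in the same order of conditions, against medians over all tested models of 0.00, 0.00, 0.03 and 0.00. In darkness with methionine, where libraries with the same replicate number deviated together, a fit of these groups alone called 521 models with the number as a block and 12 without it, against 50 in the fit of all 8 groups, and none of the neighbours in any of these fits.

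**Figure D4:**
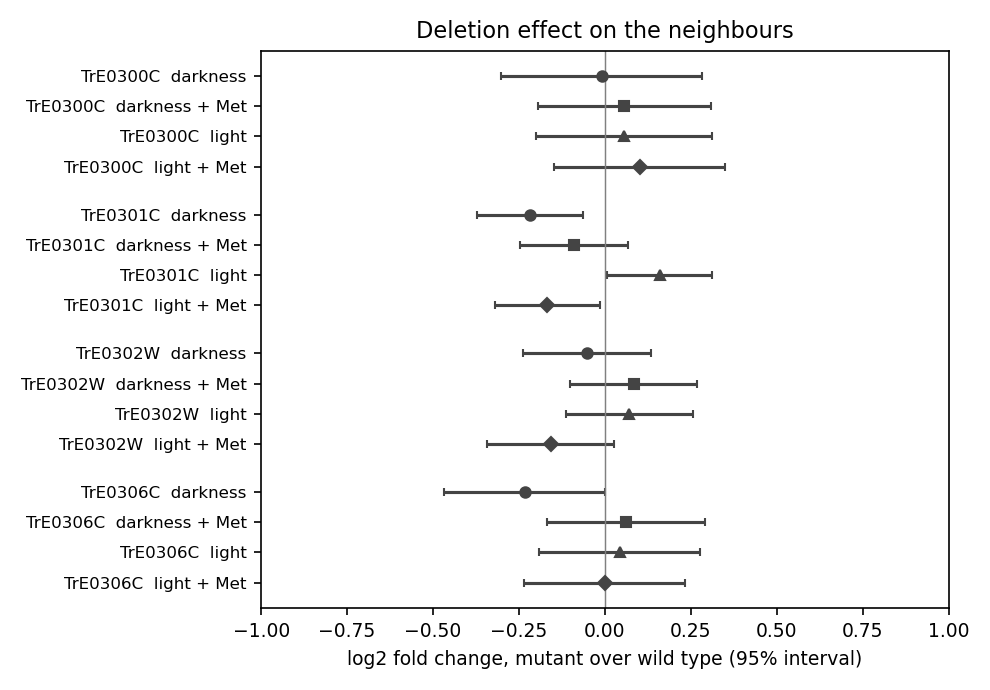
Deletion effect on each neighbour in each condition as log2 fold change of mutant over wild type, with 95% intervals from the edgeR fit. All 16 intervals lie between −0.47 and 0.35, and the 4 that leave out 0 did not pass after adjustment over all models.

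Within 10 positions on each side of TrE0303W lie 20 models, of which 13 were tested and 0 were called for the deletion in any condition. DESeq2 called 0 of the 13 in each condition at an adjusted p under 0.05. At an unadjusted p under 0.05 by edgeR, these models numbered 3 in darkness and 0 there with methionine. In light they numbered 1, and 2 there with methionine. The share of all models at that unadjusted cut was not counted. The medians of these 13 models were −0.02, 0.03, 0.07 and −0.01 on the log2 scale.

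Both models between TrE0303W and TrE0306C were too low to be tested. TrE0304C, the next model downstream, had between 0 and 5 counts in each library and 25 in all. TrE0305W had 13, 11 and 6 counts in the wild type in darkness and 1, 2 and 2 in the mutant in darkness, and between 0 and 7 in every other library. In that condition the wild type libraries were all above the mutant libraries, and the share of all models that separate in this way was not counted. In a fit with no filter on low counts the deletion effect on TrE0305W in darkness was −2.58 on the log2 scale (SE 0.68, unadjusted p = 0.00133 and adjusted p = 0.108 by edgeR), which did not pass. In that fit its wild type level was called lower in light than in darkness (−3.85, edgeR adjusted p = 0.000405) and lower with methionine in darkness (−2.52, edgeR adjusted p = 0.00206). TrE0305W was also called lower in light in the mutant (edgeR adjusted p = 0.0362), where it had 0 counts in all 3 libraries from light, and TrE0304C was called higher with methionine in mutant darkness (edgeR adjusted p = 0.0437), with 3, 4 and 1 counts against 0 in all 3. The shares of all models called in the fit with no filter are not given here, so these calls have no background. They rest on at most 13 counts in a library. The highest level of TrE0305W was 0.882 CPM, and the floor in that library was 0.204.

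Methionine and light changed some of the neighbours in both genotypes. Methionine in the wild type changed 3 of 4 in darkness (1 higher, 2 lower) and 1 of 4 in light (TrE0300C, higher), and in the mutant 2 of 4 in each lighting (TrE0300C higher and TrE0301C lower), against 75.6% of all models in wild type darkness (38.7% higher, 36.9% lower), 67.4% in wild type light (35.2% and 32.2%), 77.3% in mutant darkness (39.6% and 37.7%) and 71.7% in mutant light (37.4% and 34.3%). Light changed 2 of 4 in the wild type without methionine (TrE0300C higher, TrE0306C lower) and 3 of 4 with it (TrE0300C, TrE0301C and TrE0302W, all higher), against 64.8% (32.5% higher, 32.2% lower) and 39.1% (18.2% and 20.9%). In the mutant TrE0300C and TrE0301C were higher in light, without methionine, where 62.4% of all models were called (31.8% higher, 30.6% lower), and with it, where 40.7% were (19.0% higher, 21.7% lower). The difference in methionine effect between lightings passed for 3 of 4 neighbours in the wild type and for TrE0300C in the mutant, against 49.6% (24.3% positive, 25.3% negative) and 45.7% (22.4% and 23.3%). No difference between the genotypes in the methionine effect passed for a neighbour, by edgeR or DESeq2, against 0.043% of all models in darkness and 0.0322% in light by edgeR. At an unadjusted p under 0.05 there were 0 in darkness and 1 in light by edgeR, TrE0301C. For the contrasts of light effects between genotypes the backgrounds were 0.0537% without methionine and 0% with it, and for the contrast of interactions 0%.

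**Figure D5:**
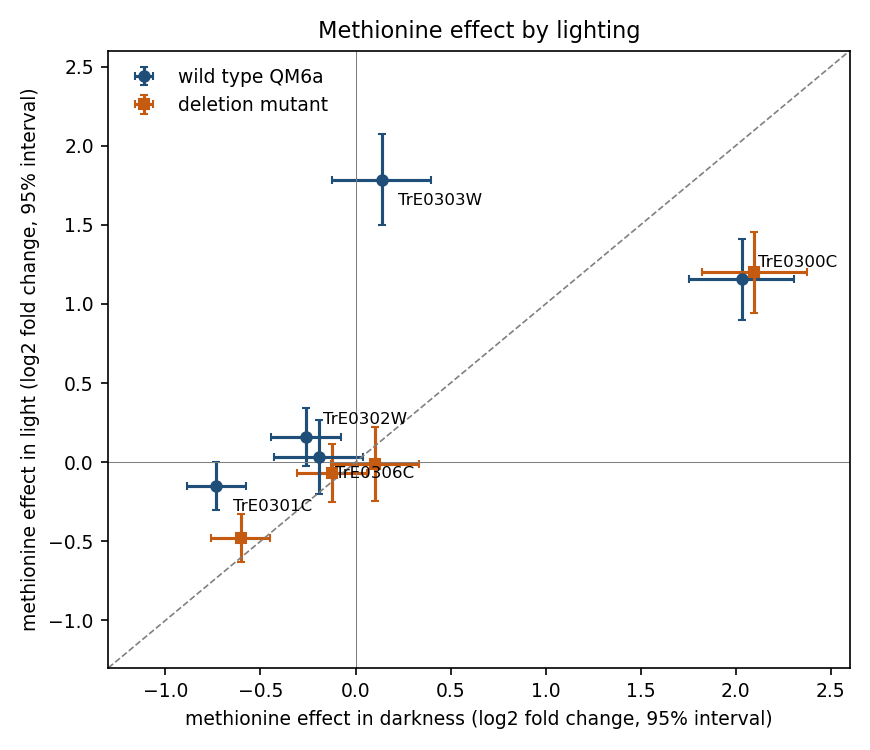
Methionine effect in darkness (horizontal) and in light (vertical) as log2 fold changes with 95% intervals, for the 5 models in the wild type and the 4 neighbours in the mutant, with the dashed line marking equal effects. TrE0303W lies above the line at 0.14 and 1.78, and TrE0300C lies below it in both genotypes.

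The models most like the receptor gene were named by correlation in the wild type. The 5 with the highest Pearson r of log2 CPM over the 12 wild type libraries were TrA1875C and TrD0412C (both 0.986), TrF0056W and TrA2146C (both 0.985) and TrD0602W (0.984). They were chosen on these wild type values, which are therefore only a description, and they lie on contigs other than that of TrE0303W. TrD0412C is linked to TRIREDRAFT_109828, the others were not linked to a locus tag, and no function is given for them in the sources used here. TrD0602W stood in the wild type at 377 ± 24.4 CPM in darkness and 394 ± 71.1 with methionine there, and at 53.6 ± 7.90 in light and 288 ± 71.9 with methionine there (SD, n = 3). TrF0056W stood at 87.3 ± 2.05, 138 ± 13.8, 9.38 ± 0.609 and 69.9 ± 8.69 CPM in the same order, and TrA1875C at 61.6 ± 6.52, 55.8 ± 2.97, 15.3 ± 1.64 and 46.4 ± 5.09. Each was lowest in light without methionine, and their means in darkness with and without methionine stood in different relations, TrF0056W being higher with it and TrA1875C lower.

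In the mutant libraries, which had no part in the correlation, these models kept a low level in light and a rise with methionine there. TrD0602W stood there at 414 ± 31.0 CPM in darkness and 560 ± 61.1 with methionine added, and at 48.4 ± 3.29 in light and 266 ± 46.3 with methionine added. TrF0056W stood at 95.5 ± 1.73, 198 ± 10.6, 9.16 ± 1.23 and 85.2 ± 8.57 CPM. TrA1875C stood at 61.4 ± 7.13, 61.8 ± 5.26, 11.5 ± 0.254 and 53.6 ± 7.56 CPM. Apart from TrA2146C, all were called lower in light without methionine in the mutant and higher with methionine in light, each by edgeR's adjusted p. The light effect was −2.42 for TrA1875C, −2.81 for TrD0412C, −3.10 for TrD0602W and −3.38 for TrF0056W on the log2 scale, and the methionine effect in light was 2.23, 2.66, 2.46 and 3.22. TrA2146C had 0 counts in light in both genotypes and 0.547 to 1.23 CPM in the other mutant groups. It passed the filter only through groups other than light without methionine, so its calls against that group are not counted and no fold is given. Of all models 30.6% were called lower in light and 37.4% higher with methionine in light in the mutant. These models were picked for that pattern in the wild type, and only 0.15% to 0.537% of all models were called for the deletion by edgeR. Their pattern in the mutant is thus a description and not a separate test.

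These models also rose with methionine in darkness in the mutant, except TrA1875C (0.01, edgeR adjusted p = 0.942). The effects were 1.05 for TrF0056W, 0.83 for TrD0412C and 0.43 for TrD0602W (edgeR adjusted p = 0.0205), and TrA2146C went from 0.547 to 1.23 CPM (edgeR adjusted p = 0.00426). Of all models 39.6% were called higher in that comparison and 77.3% in either direction. TrF0056W was the one of the 5 that was called for the deletion, being higher in the mutant in darkness with methionine (0.52, SE 0.09, edgeR adjusted p = 0.00948), a comparison that shares its wild type libraries with the choice.

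Among genes of G-protein signalling, 15 names were sought, 12 were in the reference table, and 7 were linked to a tested model. These were the receptor genes csg1 and csg2, named for carbon sensing, the G-protein alpha subunit genes gna2 and gna3, rgs1, which encodes a regulator of G-protein signalling, pkac2, which encodes a catalytic subunit of protein kinase A, and pkar1, which encodes its regulatory subunit. The other names were not linked and are not analysed here. For the deletion 0 of 7 were called in each condition by edgeR and by DESeq2. With 0.15% to 0.537% of all models called by edgeR in these comparisons, 0 of 7 is also what the background gives. At an unadjusted p under 0.05 gna2 passed in darkness (0.16, edgeR adjusted p = 0.35) and gna3 in light with methionine (0.22, edgeR adjusted p = 0.344). The share of all models at that unadjusted cut was not counted.

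In darkness 7 of 7 signalling genes were higher with methionine in the wild type and in the mutant, and in light 4 were higher and 1 lower in each. Among them csg2 had group means of at most 0.0205 CPM without methionine, so it passed the filter only through groups with methionine. Its calls as higher, in both lightings, follow from that filter. Only the calls of the other genes can be set against the shares of all models. In darkness 38.7% of all models were called higher in the wild type and 39.6% in the mutant. In light 35.2% were called higher and 32.2% lower in the wild type, and 37.4% and 34.3% in the mutant. In either direction 67.4% of all models were called in light in the wild type and 71.7% in the mutant. The 7 of 7 in darkness and the 5 of 7 in light include csg2, so neither tally is set against these shares. The difference in methionine effect between lightings was positive for 1 gene (pkac2) and negative for 5 in the wild type, where 24.3% and 25.3% of all models were called in those directions. For TrE0303W this difference was positive, as for pkac2 (0.39, edgeR adjusted p = 0.0172), and the median over the 7 genes was −0.49.

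The receptor gene csg1 (TrG0901W, TRIREDRAFT_72627) had its highest level where TrE0303W had its lowest. Its wild type level was 3.33 ± 0.716 CPM in darkness and 9.70 ± 1.15 with methionine there, and 21.8 ± 0.867 CPM in light and 13.9 ± 2.15 with methionine there (SD, n = 3). Light raised csg1 by 2.71 and methionine in light lowered it by a log2 fold change of −0.65 (edgeR adjusted p = 0.000968), while its difference in methionine effect between lightings was −2.20 (edgeR adjusted p = 2.66e-07). The mutant levels of csg1 were 2.78 ± 0.699, 10.97 ± 0.172, 23.2 ± 3.93 and 15.5 ± 1.85 CPM in the same order. csg2 (TrG1034W, TRIREDRAFT_72605), named here after its values were seen, was found almost only with methionine, at 9.70 ± 3.67 CPM in darkness and 2.98 ± 1.55 in light in the wild type, against 0.0205 ± 0.0354 and 0 without it. In the wild type the methionine effects on rgs1 (1.60 in darkness and −0.07 in light) and gna2 (0.59 and −0.16) were called in darkness and not in light, and their differences between lightings were −1.67 and −0.75, both called.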

How the data were processed

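Each value of the deposited table is an unnormalized count of paired reads on a gene model. The authors produced it with featureCounts 2.0.1, set to paired, reverse stranded counting, per the file headers. The submitters' processing notes name HISAT2 2.2.1 as well. The deposited model length divides by 3 for 94.7% of models and was used as coding length.

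Counts were tested with edgeR 4.0.16 (R 4.3.3) with group (8 levels) as the single factor, with TMM scaling, the package's filter (minimum count 10), the quasi-likelihood test and Benjamini-Hochberg adjustment over 9308 models at 0.05. Log2 CPM used a prior count of 2, SE is the size of the log2 fold change divided by the square root of F, and common biological variation (as a coefficient) came to 0.133. Replicate pairs of a group differed by a chi-square of 4.07 to 158 per model, so none were taken as duplicates. Models were linked to locus tags by identical span and at least 3 identical spans among 6 neighbours on each side, in order, which linked 4012 of 10879 (36.9%). The fit and the linking were tested on simulated data.

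The members and gene lists were chosen with earlier results of these data known. Named models were the members, the models between them, the 5 most like TrE0303W, a signalling list and TrC0447C. All 7 tested members of the signalling list were counted, and the rule named up to 6 of them by the smallest adjusted p of the methionine by light interaction in the wild type. The product texts it also names were not in the reference table.

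Alternatives were DESeq2 1.42.0 size factors, its Wald test, no filter, fitting only the groups compared, a replicate block, and leaving out each library. Same-numbered libraries deviated together most for wild type and mutant in darkness with methionine (residual correlations 0.369, 0.136 and 0.475). In light, replicate 1 of the wild type and of the mutant had 0.196, and replicate 3 of the mutant without and with methionine 0.122. Over all 18 same-numbered pairs per lighting the mean was 0.046 in darkness and −0.058 in light. The highest value, 0.509, joined replicate 3 of the wild type in light with replicate 2 of the mutant in light, which a block by number does not cover.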

Additional observations from a re-analysis of the deposited data

Results flagged for a closer look

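The response to methionine differed between lightings, by a test of the difference itself, for these models. For TrE0303W in the wild type the log2 fold change with methionine was larger in light by 1.65 (edgeR adjusted p = 8.25e-06). The 3 wild type libraries in light with methionine were all above the 3 without it, a separation whose share over all models was not counted. TrE0301C (0.58, edgeR adjusted p = 0.000109) and TrE0302W (0.42, edgeR adjusted p = 0.00854) also had positive differences in the wild type. For TrE0300C the difference was negative in the wild type (−0.88, edgeR adjusted p = 0.00039) and in the mutant (−0.90, edgeR adjusted p = 0.000336). Among all tested models 49.6% were called for this difference in the wild type and 45.7% in the mutant.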

How the results depend on the processing

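Of 1142 alternative values over 81 results for the 5 models, 1138 kept their side of the threshold, 2 lost a call and 2 gained one, and no called value changed sign, as named with TrE0302W and, for the second gain, TrE0301C, whose wild type methionine effect in light passed once replicate 1 of the light group was left out (−0.20). All 66 alternatives for TrE0303W kept their call or lack of it, with the light effect at −2.20 to −2.05, the methionine effect in light at 1.67 to 1.88 and the difference between lightings at 1.53 to 1.74 when libraries were left out. All 180 alternatives for the deletion effect on the neighbours stayed without a call.

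The counts of models called for the deletion, which serve as background, depended strongly on the setting. In darkness 19 became 11 with no filter, 6 with the replicate block, 3 with only the groups compared, 157 by DESeq2's Wald test and 5 to 58 without single libraries (58 when wild type replicate 2 was left out). In darkness with methionine 50 became 12 with only the groups compared, 109 by DESeq2, 521 with these groups and the block, and 16 to 56 without single libraries (16 when wild type replicate 2 was left out). In light 14 became 2 with only the groups compared, 247 by DESeq2 and 5 to 312 without single libraries (274 and 263 when wild type replicate 2 or 1 was left out, and 312 when mutant replicate 2 was). In light with methionine 32 became 20 with the block, 7 with only the groups compared, 89 by DESeq2 and 15 to 83 without single libraries (83 without replicate 1 of the mutant). For the methionine by deletion interaction 4 in darkness became 2 with the block, 31 by DESeq2 and 1 to 22 without single libraries, and 3 in light became 0 with only the groups compared, 53 by DESeq2 and 0 to 31. For the added contrasts, 5 for deletion by light without methionine became 2 with the block, 80 by DESeq2 and 2 to 46, 0 with methionine became 20 by DESeq2 and 0 to 17, and 0 for all 3 factors became 5 by DESeq2 and 0 to 8. The cause of these shifts was not tested. The replicate block changed no call of the 5 models. The intervals given with the deletion effects bound their size in the neighbours.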
